A study of Saccharomyces cerevisiae with 10 samples.

Results

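The mitochondrial chaperones of Saccharomyces cerevisiae were described by their transcript levels in 2 strains that differ at 1 base in the promoter of UBR1. The members were the 10 genes of a list chosen by function: SSC1 (YJR045C), ECM10 (YEL030W), SSQ1 (YLR369W), MDJ1 (YFL016C), JAC1 (YGL018C), MGE1 (YOR232W), ZIM17 (YNL310C), HSP60 (YLR259C), HSP10 (YOR020C) and HSP78 (YDR258C). All 10 members were among the 6612 transcripts of the tables and among the 5986 that passed the minimum of 10 estimated counts in every library. The study asked which transcripts change when UBR1, the ubiquitin ligase that reads N-terminal degradation signals of the Arg/N-end rule, carries the A-to-T change at promoter position -469. Polyadenylated RNA was sequenced from 5 independent cultures of BY UBR1 -469A>T (the mutant) and 5 of BY with wild-type UBR1 (BY), both labelled as BY4741 derivatives. The cultures were grown together in synthetic complete medium for about 7 hours and collected at an optical density of about 0.4, with no heat shock or other treatment in either strain. The cultures are described as independent biological replicates, and the study kept several independently derived isolates of its edited strains. Which isolate each culture came from is not in the labels.

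Mitochondria make only a few of their own proteins. The rest are made in the cytosol, unfolded to pass through the import channels and folded again in the matrix, the innermost compartment. There the Hsp70 Ssc1 pulls precursors in and helps them fold, together with the J protein Mdj1, which stimulates its ATPase, the nucleotide exchange factor Mge1, which resets it, and the escort protein Zim17, which keeps it soluble. Ecm10 is a paralog of Ssc1. Ssq1 is a specialised Hsp70 that works with the J protein Jac1 in the assembly of iron-sulfur clusters. Many folding proteins are handed on to the chaperonin ring Hsp60 and its lid Hsp10, and Hsp78, the matrix relative of cytosolic Hsp104, takes aggregates apart.

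In yeast, Hsf1 binds heat shock elements, alternating GAA and TTC units, and Msn2 and Msn4 bind stress response elements. The 500 bases before each start codon were therefore searched on both strands for 3 alternating heat shock units (GAANNTTCNNGAA or TTCNNGAANNTTC) and for the stress response element (AGGGG or CCCCT). These windows can reach into a neighbouring gene. The heat shock element of 3 units was in 3 of the 10 member windows and in 1.48% of the 6000 promoter windows of the R64 genome. It is not particular to the members. Of the cytosolic Hsp70 list compared below, SSA1, SSA2, SIS1, FES1, SSE1 and HSP104 held it, and SSA3, SSA4, YDJ1 and SSE2 did not. KAR2 of the endoplasmic reticulum also held it. The element is shown in capitals, 5′ to 3′ toward the gene, for the 3 members that hold it, since they form the chaperonin and the disaggregase. The HSP60 window is chrXII:665185-665227, the HSP10 window chrXV:370977-371019 and the HSP78 window chrIV:974458-974505, all on the minus strand, and the HSP78 capitals join 2 overlapping matches into 18 bases.
HSP60: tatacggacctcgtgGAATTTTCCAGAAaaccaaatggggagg
HSP10: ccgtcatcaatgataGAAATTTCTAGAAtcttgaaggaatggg
HSP78: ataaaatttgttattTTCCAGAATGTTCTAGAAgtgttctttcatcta

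The element ended 197 bases before the HSP60 start codon, 147 bases before that of HSP10 and 229 bases before that of HSP78. The shorter pair of units, GAANNTTC or TTCNNGAA, lies inside these elements, was found in the same 3 members and was in 35.2% of all windows. The stress response element was in 6 of 10 member windows (SSC1, ECM10, MDJ1, JAC1, ZIM17 and HSP78) and in 34.1% of all windows. MDJ1 held 2 copies and HSP78 held 3. The 2 copies before MDJ1 are shown with the element in capitals, since MDJ1 and HSP78 were the members called between the strains. SSC1, ECM10, JAC1 and ZIM17, which also hold the element, were not called. The MDJ1 copies lie at chrVI:106589-106623 and chrVI:106562-106596 on the minus strand.
MDJ1 first: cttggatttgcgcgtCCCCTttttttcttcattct
MDJ1 second: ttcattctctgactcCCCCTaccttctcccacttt

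SSQ1 and MGE1 held no match to any of these letters. A match is a description of the sequence and was not tested for binding.

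The libraries held between 71103539 and 97644549 estimated counts in the mutant and between 72105131 and 94432416 in BY. UBR1 itself was checked first. It stood at 162, 166, 179, 175 and 183 CPM in mutant replicates 1 to 5, against 156, 154, 157, 134 and 142 CPM in BY replicates 1 to 5, where CPM is the estimated count after all libraries were brought to a common size by the trimmed mean of M values (TMM). Every mutant library lay above every BY library. The fitted log2 fold change of mutant over BY was 0.21 (SE 0.047, edgeR adjusted p = 0.0189), and the exact two-sided permutation test gave p = 0.00794, the smallest it can give with 5 cultures against 5. The labels name the strain BY4741, which lacks HIS3, LEU2, MET17 and URA3, while the study's methods give BY deletions of HIS3 and HO only. LEU2, MET17 and URA3 were counted in all 10 libraries, and so were HIS3 and HO, with at least 4876 and 2398 estimated counts. BY replicate 1 stood apart at -0.77 on the second surrogate variable, against -0.31 to 0.31 in the other libraries.

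Across the transcriptome, 21.2% of transcripts were called at an adjusted p under 0.1, 11.9% higher and 9.34% lower in the mutant. Among the 10 mitochondrial chaperones, MDJ1 and HSP78 were higher in the mutant and none was lower. The other 8 were not called. The median log2 fold change of the members was 0.021, beside 0.0011 over all tested transcripts, and 6 members had positive and 4 negative values. In no member did the 5 mutant libraries lie wholly apart from the 5 BY libraries, which happened upward in 1.54% and downward in 1.39% of all tested transcripts. The calls depend on how the variation within strains is modelled, here by 2 surrogate variables. With no such term edgeR called 0 transcripts of 5986, with 1400 at an unadjusted p under 0.05, none of them a member. With a term for replicate number instead (a replicate block) edgeR called 2374, among them HSP78 (log2 fold change 0.36, adjusted p = 0.0869) but not MDJ1.

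**Figure D1:**
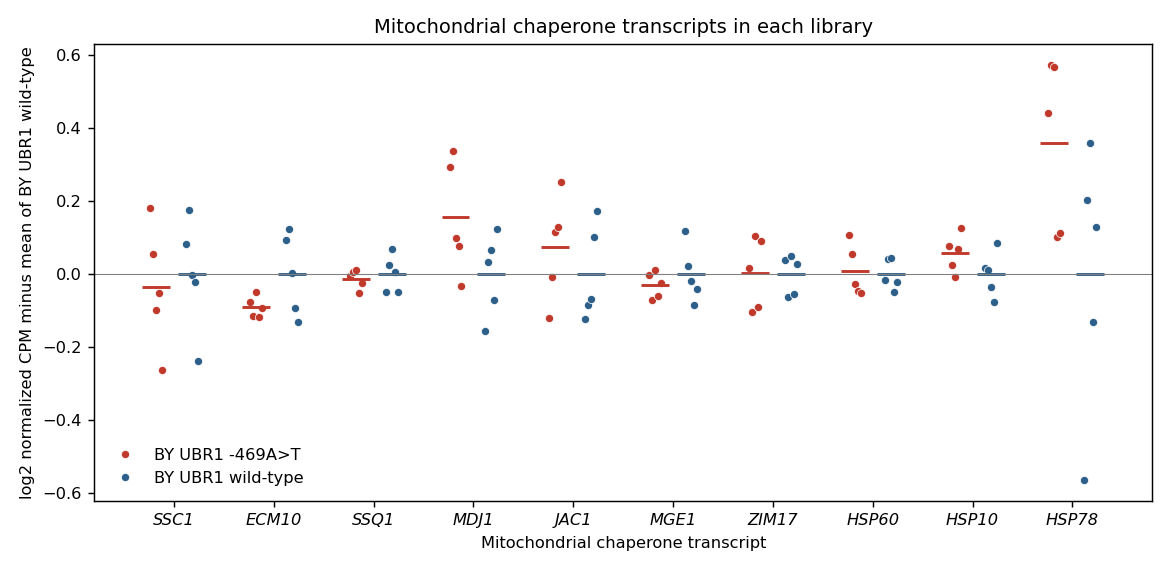
Log2 normalized CPM of each mitochondrial chaperone in each library, minus the mean log2 value of that gene in BY, with mutant libraries left in red and BY libraries right in blue and bars at the strain means. The strains overlap for all 10 genes, and the lowest BY point, for HSP78, is replicate 1 at 269 CPM.

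In TPM, which corrects for transcript length and lets genes be compared, the members spanned a wide range. The correction uses an effective length, which was 116 to 120 of 321 bases for HSP10 and 1752 to 1760 of 1974 for SSQ1. The levels of short members, and the size of the ratios below that hold them, depend on it. HSP10 had the highest level, with a median of 780 TPM over the 10 libraries and a range of 724 to 835. SSC1 followed at 231 (192 to 276), then MGE1 at 205 (191 to 232) and HSP60 at 161 (148 to 174). HSP78 had a median of 82.8 TPM (49.2 to 102), MDJ1 49.4 (43.2 to 57.4) and ZIM17 34.6 (30.4 to 36.9). JAC1 and SSQ1 were close, at 16.0 (14.2 to 18.7) and 14.9 (14.0 to 16.7) TPM. ECM10 was lowest at 3.43 TPM (3.24 to 4.23). The neighbouring pairs whose ranges overlapped were SSC1 and MGE1, HSP78 and MDJ1, and JAC1 and SSQ1, but within a library HSP78 was above MDJ1 in 10 of 10. SSC1 was above MGE1 in 8 of 10 libraries and JAC1 above SSQ1 in 6 of 10, so the order of these pairs is not fixed.

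The 3 Hsp70s were set side by side first. SSC1, the import and folding Hsp70, stood at 1155, 1059, 952, 984 and 849.6 CPM in the mutant, against 1079.9, 1152, 1018, 1004 and 865 CPM in BY. In both strains replicate 5 was the lowest library, and the strains covered almost the same range. The fitted log2 fold change was 0.088 (SE 0.036, edgeR adjusted p = 0.128), while the plain difference of mean log2 CPM had the opposite sign, at -0.035. Without BY replicate 1 the adjusted p was 0.0801, under the threshold.

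ECM10, the paralog of SSC1, had 15.1, 14.7, 15.4, 14.7 and 14.9 CPM in the mutant, against 17.0, 17.4, 16.0, 14.9 and 14.6 CPM in BY. The mutant libraries were close together, and BY replicates 1 to 3 lay above all of them. The log2 fold change was -0.055 (SE 0.043, edgeR adjusted p = 0.437). SSQ1, the iron-sulfur Hsp70, was the steadiest member, with 67.0, 67.5, 67.7, 64.8 and 66.1 CPM in the mutant and 64.9, 68.3, 70.4, 67.4 and 64.9 CPM in BY. Its log2 fold change was 0.0027 (SE 0.032, edgeR adjusted p = 0.966).

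SSC1 and ECM10 share much of their coding sequence, so it was asked whether their counts could be mixed. Over 1928 aligned base pairs 76.2% were identical, and the longest unbroken identical run was 26 bases. It is shown in capitals with its flanks, since it is where reads of the 2 genes are hardest to tell apart, at chrX:521031-521086 (minus strand) for SSC1 and chrV:95151-95206 (plus strand) for ECM10.
SSC1: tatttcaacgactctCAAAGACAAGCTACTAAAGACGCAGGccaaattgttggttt
ECM10: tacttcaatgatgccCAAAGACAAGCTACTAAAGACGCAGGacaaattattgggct

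No 31-base stretch of any member occurred elsewhere in R64.

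MDJ1, the J protein partner of Ssc1, was higher in the mutant. It had 191, 197, 167, 165 and 152 CPM in the mutant, against 140.1, 159.7, 163, 149 and 169.9 CPM in BY. Mutant replicates 1 and 2 were above every BY library, and mutant replicate 5 was below 3 of them. The log2 fold change was 0.20 (SE 0.051, edgeR adjusted p = 0.0263), and the exact permutation test without surrogate variables gave p = 0.119 (0.306 after adjustment over all transcripts). After that adjustment none of the 5986 transcripts passed 0.1 in the permutation test, and UBR1 itself stood at 0.257. The adjusted permutation values of MDJ1, and of HSP78 below, therefore say little about these genes. The edgeR adjusted p of MDJ1 was 0.150 without BY replicate 1 and 0.136 without mutant replicate 2, both over the threshold.

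The other cochaperones were not called. MGE1, the nucleotide exchange factor, had 246, 234.7, 249, 236 and 242 CPM in the mutant, against 268, 250.1, 244, 233 and 239.6 CPM in BY (log2 fold change -0.016, SE 0.032, edgeR adjusted p = 0.781). ZIM17, the escort protein, had 26.8, 24.7, 28.5, 24.9 and 28.2 CPM in the mutant, against 27.2, 25.4, 27.4, 25.5 and 27.0 CPM in BY (log2 fold change -0.016, SE 0.051, edgeR adjusted p = 0.865). JAC1, the J protein partner of Ssq1, had 12.3, 13.3, 14.5, 14.6 and 15.9 CPM in the mutant, against 12.3, 12.6, 12.7, 14.3 and 15.05 CPM in BY (log2 fold change -0.028, SE 0.041, edgeR adjusted p = 0.693). The plain difference of mean log2 CPM for JAC1 had the opposite sign, at 0.074. For all of them the libraries of the 2 strains were intermingled.

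The chaperonin pair was also close between strains. HSP60 had 652, 629.6, 594, 587 and 584 CPM in the mutant, against 598, 623, 624, 586 and 596 CPM in BY. Its log2 fold change was 0.046 (SE 0.034, edgeR adjusted p = 0.409). HSP10 had 238, 229.6, 225, 237 and 246 CPM in the mutant, against 228, 227, 220.2, 214 and 239 CPM in BY. Its log2 fold change was 0.040 (SE 0.040, edgeR adjusted p = 0.551), and 4 of 5 mutant libraries were above the BY mean. HSP60 and HSP10 are 2 of the 3 members with the heat shock element printed above, and the strains overlapped for both, as for all 10 members.

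HSP78, the disaggregase, had the largest log2 fold change of the members. It stood at 539.6, 591, 588, 426 and 429 CPM in the mutant, against 269, 457, 509.8, 363 and 434 CPM in BY. All 5 mutant libraries were above the BY mean of 407 CPM, 3 were above the highest BY library, and mutant replicates 4 and 5 were below BY replicates 2, 3 and 5. The log2 fold change was 0.43 (SE 0.119, edgeR adjusted p = 0.0400), and the exact permutation test gave p = 0.111 (0.299 after adjustment over all transcripts). HSP78 also varied most within strains, with an SD of log2 CPM of 0.24 in the mutant and 0.36 in BY. The adjusted p was 0.215 without BY replicate 5 and 0.145 without mutant replicate 2, both over the threshold. From bulk cultures, more RNA per cell and more cells with high RNA cannot be told apart.

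**Figure D2:**
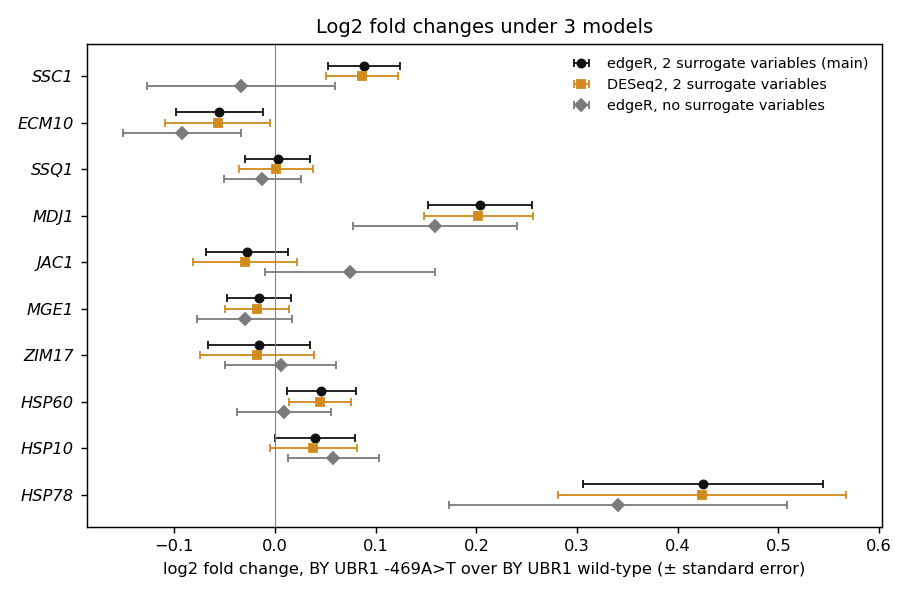
Log2 fold change of mutant over BY for each mitochondrial chaperone, with its standard error, from edgeR with 2 surrogate variables (black), DESeq2 with 2 surrogate variables (orange) and edgeR with none (grey). HSP78 lies at 0.43 and MDJ1 at 0.20 in black, the other 8 members lie between -0.055 and 0.088, and the grey point of SSC1 is below 0.

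Machines of several subunits were then compared as TPM ratios within a library, where depth and scaling cancel. For partners that work together, 5 ratios were tested and none passed an adjusted p of 0.1. HSP60 to HSP10 averaged 0.204 in the mutant and 0.211 in BY (log2 difference -0.051, exact permutation p = 0.413, adjusted 0.516). SSC1 to MGE1 averaged 1.11 in both strains (exact permutation p = 0.960), and SSQ1 to JAC1 averaged 0.911 in the mutant and 0.968 in BY (exact permutation p = 0.373, adjusted 0.516). SSC1 to MDJ1 averaged 4.32 in the mutant and 4.93 in BY (log2 difference -0.19, exact permutation p = 0.119, adjusted 0.298). Without BY replicate 5 this difference was -0.28 and passed (exact permutation test, adjusted p = 0.0397). SSC1 to HSP78 averaged 2.48 in the mutant and 3.26 in BY (log2 difference -0.39, exact permutation p = 0.0714, adjusted 0.298). BY replicate 1 had the highest SSC1 to HSP78 ratio, at 5.11.

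Each machine was also set against its cytosolic counterpart. MGE1 relative to FES1, a nucleotide exchange factor of cytosolic Hsp70, was 1.78, 1.503, 1.51, 1.47 and 1.58 in the mutant, against 4.55, 2.83, 2.50, 2.27 and 1.77 in BY. Mutant replicate 1 and BY replicate 5 met, and the other libraries were apart. The log2 difference was -0.76 (exact permutation p = 0.0159, adjusted 0.0794 over 5 ratios), and the adjusted p was 0.119 without mutant replicate 3, 4 or 5. SSC1 relative to SSA2, a major cytosolic Hsp70, was 0.413, 0.374, 0.329, 0.335 and 0.301 in the mutant, against 0.494, 0.468, 0.424, 0.423 and 0.363 in BY. The log2 difference was -0.31 (exact permutation p = 0.0397, adjusted 0.0992), and leaving out BY replicate 1, 2 or 4 or mutant replicate 3, 4 or 5 took the adjusted p over the threshold, to between 0.119 and 0.159. Of the 31-base stretches of SSA2, 63.9% also occur elsewhere in the genome, so its counts are less certain. SSA2 was itself called higher (log2 fold change 0.27, SE 0.039, edgeR adjusted p = 0.0018), and so was FES1 (0.60, edgeR adjusted p = 0.000113). For both genes every mutant library lay above every BY library, while SSC1 and MGE1 were not called. The ratios of MDJ1 to YDJ1, the main cytosolic J protein, and of HSP60 to TCP1, a subunit of the cytosolic chaperonin CCT, did not pass (adjusted p = 0.429 and 0.278, exact permutation tests). HSP60 to TCP1 passed without mutant replicate 1 (exact permutation test, adjusted p = 0.0529).

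**Figure D3:**
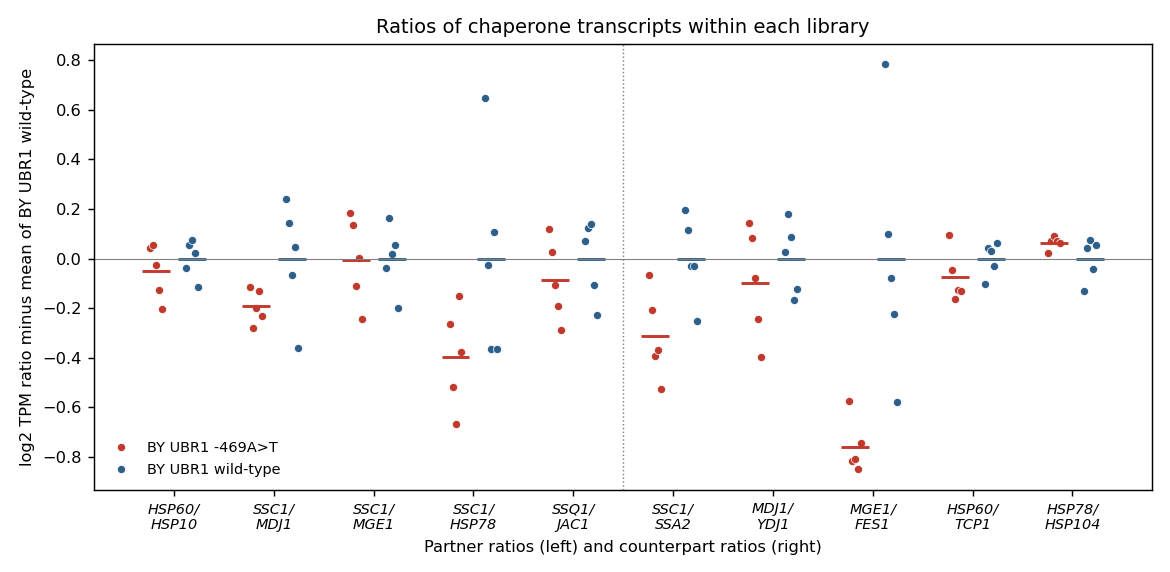
Log2 TPM ratio within each library, minus its mean in BY, with mutant libraries left in red, BY libraries right in blue and bars at the strain means; partners in the matrix are left of the dotted line and mitochondrial over cytosolic counterparts right of it. The mean of MGE1/FES1 lies -0.76 from BY, that of SSC1/SSA2 -0.31 and that of HSP78/HSP104 0.063.

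HSP78 relative to HSP104 was nearly constant, although both genes varied widely. The ratio was 0.224, 0.232, 0.235, 0.231 and 0.230 in the mutant, against 0.201, 0.227, 0.232, 0.214 and 0.229 in BY. The log2 difference was 0.063 (exact permutation p = 0.175, adjusted 0.278), and it passed without BY replicate 3 (0.082, adjusted 0.0926). HSP104, the cytosolic disaggregase, had 2728, 2885, 2834, 2082 and 2111 CPM in the mutant, against 1510.1, 2274, 2481, 1918 and 2145 CPM in BY. In both genes mutant replicates 1 to 3 were high and BY replicate 1 was lowest. HSP104 was called higher, with a log2 fold change of 0.38 (SE 0.098, edgeR adjusted p = 0.0301).

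**Figure D4:**
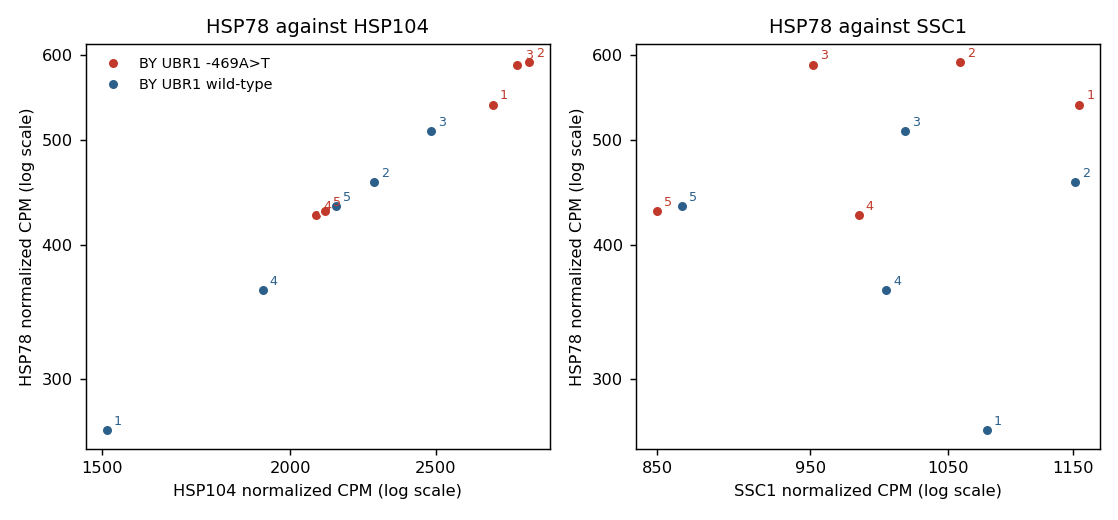
Normalized CPM of HSP78 against HSP104 (left) and against SSC1 (right), both axes on a log scale, 1 point per library labelled by replicate number, mutant in red and BY in blue. The points lie close to a line for HSP104 (SD of the log2 ratio 0.069) and scatter for SSC1 (SD 0.373).

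The genes most like a member were sought by the SD of the log2 ratio of normalized CPM over the 10 libraries, among transcripts with a mean of at least 100 CPM. For HSP60 the 5 nearest of 1818 were YTA7, HOG1, ADE16, MNN2 and RIB4, with SDs of 0.043 to 0.046. HSP10, its lid, was at rank 268 (SD 0.083), MGE1 at 171, SSC1 at 724, MDJ1 at 748 and HSP78 at 1632. HSP60 itself had an SD of 0.055, which is what a transcript with no variation would give, so this likeness is mostly shared flatness. The same measure was applied to HSP78 after its values had been seen. Its 5 nearest were HSP104 (SD 0.069), SSE2 (0.081), HSP42 (0.1001), YGP1 (0.121) and SPI1 (0.133), against an SD of 0.345 for HSP78 itself. MDJ1 was at rank 19 (SD 0.236) and SSC1 at rank 1048 (SD 0.373).

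The machinery that works beside the chaperones was described from lists chosen by function. Of 50 genes for import, processing, proteolysis and iron-sulfur assembly in mitochondria, 3 were called higher and 5 lower, and 42 were not called. Over all tested transcripts 21.2% were called, 11.9% higher and 9.34% lower. Calls in the 2 directions together were therefore not more frequent in these lists than elsewhere, and the share called lower was close to that elsewhere. The median log2 fold change was -0.034 and 43 of the 50 values were negative, while 49.5% of all tested transcripts had negative values. Without surrogate variables 36 of 50 were negative, and without BY replicate 5 there were 34. None of the 10 genes of the import motor and TIM23 channel, the 8 of the TOM complex or the 8 of the TIM22 and small TIM group was called, and their medians were -0.030, -0.030 and -0.041.

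Among 11 processing peptidases and proteases, 4 were lower and 1 was higher. Leaving out 1 library gave 0 to 3 lower and 0 to 1 higher. OCT1, a peptidase that trims imported precursors, had 34.7, 31.7, 29.4, 31.2 and 30.9 CPM in the mutant, against 39.1, 37.2, 37.6, 36.3 and 35.5 CPM in BY. Every mutant library was below every BY library, and the log2 fold change was -0.19 (SE 0.040, edgeR adjusted p = 0.0132). MCX1, the matrix ClpX relative, was the 1 called higher, with a log2 fold change of 0.10 (SE 0.035, edgeR adjusted p = 0.0776). Among 13 iron-sulfur genes, 2 were higher and 1 was lower, and leaving out 1 library gave 1 to 2 higher and 0 to 1 lower. ISU2, a scaffold on which clusters are built and a client of the Ssq1 and Jac1 pair, had 23.8, 27.9, 26.3, 25.9 and 28.2 CPM in the mutant, against 15.4, 18.6, 20.3, 23.9 and 24.0 CPM in BY. Only mutant replicate 1 overlapped BY, and the log2 fold change was 0.30 (SE 0.046, edgeR adjusted p = 0.00253). IBA57, which acts late in cluster assembly, was lower, with a log2 fold change of -0.19 (SE 0.048, edgeR adjusted p = 0.0254).

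Chaperones outside mitochondria were listed for comparison. Of 10 genes of the cytosolic Hsp70 system with HSP104, 8 were higher and none lower, with a median log2 fold change of 0.32, beside 2 of 10 and 0.021 for the mitochondrial chaperones. The 8 became 4 without BY replicate 5, 1 with 1 surrogate variable and 0 with none. FES1 had the largest value, at 0.60 (SE 0.049, edgeR adjusted p = 0.000113). Of 8 CCT genes only CCT5 was called, at 0.091 (SE 0.033, edgeR adjusted p = 0.0909, list median 0.066), and without BY replicate 1 there were 3. Of 7 genes of the Hsp70 system of the endoplasmic reticulum 2 were higher (median 0.0077), among them KAR2 at 0.27 (SE 0.037, edgeR adjusted p = 0.0015). None of 8 markers of mitochondrial mass was called (median 0.036), but 5 were higher without BY replicate 1, 3 were higher with 3 surrogate variables and 3 were lower with a replicate block. Their part in the chaperone values was not tested. The difference between the lists was not tested. Of the regulators, MSN2 was lower (log2 fold change -0.14, SE 0.034, edgeR adjusted p = 0.0247). HSF1 (-0.049, SE 0.041, edgeR adjusted p = 0.468) and MSN4 (0.24, SE 0.098, edgeR adjusted p = 0.131) were not called, and the MSN4 value had the opposite sign.

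**Figure D5:**
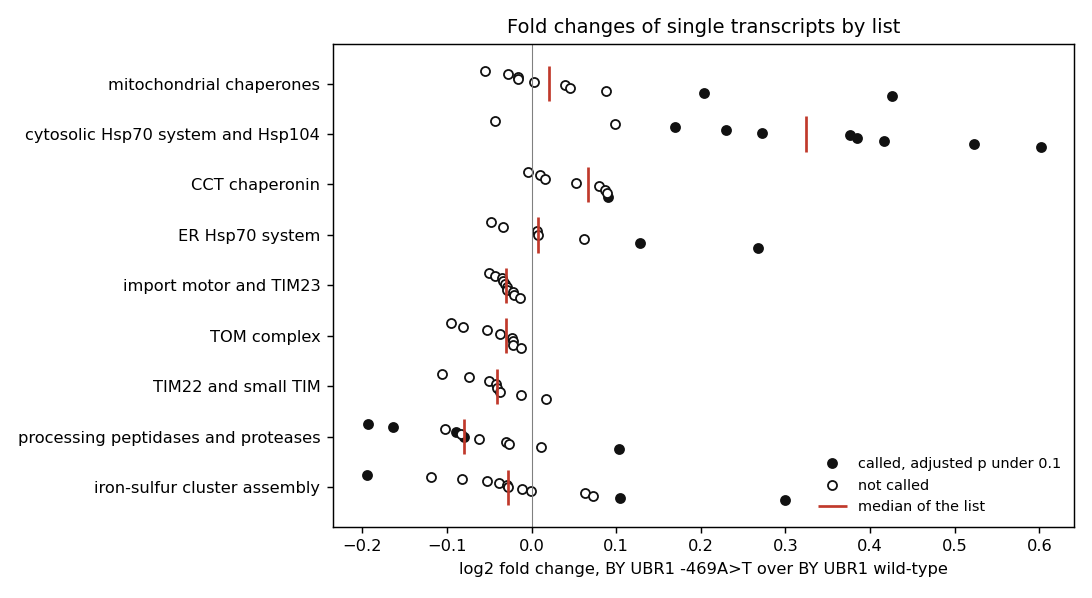
Log2 fold change of mutant over BY for each transcript of the lists, with filled points at an adjusted p under 0.1, open points above it and a red line at the median of each list. The median is 0.021 for the mitochondrial chaperones, 0.32 for the cytosolic Hsp70 list and between -0.041 and -0.030 for the import lists.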

How the data were processed

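RNA was taken from 10 cultures, 5 per strain, in 2 extraction batches balanced for strain; library preparation was directional and poly(A)-selected. The deposited tables hold, per transcript, estimated counts and TPM that the authors made with fastp and Kallisto against Ensembl transcripts; versions are not given in the sources used here. The study's own model held batch and optical density of each culture, with 2 surrogate variables added to them. Batch and optical density are not in the labels, so the fit here held 2 surrogate variables alone. The study, which used DESeq2 and a further transcript filter, called far fewer transcripts at the same threshold than the 1271 called here.

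Estimated counts were rounded and tested in R 4.3.3 with edgeR 4.0.16 (quasi-likelihood, TMM) and svaseq from sva 3.50.0. Benjamini-Hochberg adjustment ran over all 5986 transcripts with at least 10 counts and an effective length of at least 1 in every library, and 0.1 was the threshold. SE is the log2 fold change divided by the root of F. Exact permutation tests were two-sided over 252 splits. Ratios used TPM, adjusted over 5. Sequences and positions come from R64. The fit was also run on counts simulated from its own fitted values, with planted changes larger than those of any member. That run cannot judge the choice of surrogate variables or the calls of the members.

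The named genes were all 10 members and, from each other list, the largest called rise and fall, with UBR1, the counterpart genes of the ratios and the 5 genes nearest to HSP60; the nearest genes of other members, MSN4 and HSF1 beside MSN2, and the strain markers were named after their values were seen. Members and lists were chosen with earlier results of these data known. Alternatives were DESeq2 1.42.0, 0, 1 or 3 surrogate variables, other scalings and count minimums, a stricter threshold, a replicate block and leaving out each library. Replicate libraries of a strain differed by far more than counting noise, so each counted once. Of the same-numbered cultures, number 3 did not deviate together (r = -0.0061; the others 0.295 to 0.682), so the numbers were not taken to pair the strains. Even so, the main axis of variation within strains (59.8% of that variance) tended to rise with replicate number in each strain. It ran from -20.2 in BY replicate 2 to 11.8 in BY replicate 5, and from -10.3 in mutant replicate 1 to 23.3 in mutant replicate 5. What this order reflects was not tested. Each mutant library lay higher on the axis than the BY library of the same number, so axis and strain cannot be fully told apart. The SSC1 to SSA2 ratio tended to fall with replicate number in both strains. The permutation tests of the ratios make no allowance for the axis.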

Additional observations from a re-analysis of the deposited data

How the results depend on the processing

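The count of 2 members called higher became 0 with no surrogate variable and 0 with 1 surrogate variable, and 0 to 2 when 1 library was left out; DESeq2 and 3 surrogate variables each gave 3, adding SSC1 (adjusted p = 0.0693 and 0.0982). HSP78 kept a positive log2 fold change in all 20 alternatives, between 0.33 and 0.50, and passed the threshold in 16; MDJ1 was positive in all 20 and passed in 14. The count over all transcripts, 1271, was 1429 with DESeq2 and 0, 43 and 1844 with 0, 1 and 3 surrogate variables, 248 without BY replicate 5 and 331 without mutant replicate 2. UBR1 did not pass with no surrogate variable (0.22, adjusted p = 0.164), with 1 (0.22, 0.201) or without BY replicate 5; leaving out 1 library gave 0.17 to 0.25. The mitochondrial pathway genes called lower numbered 0 to 13 over the alternatives and those called higher 0 to 5. Of the cytosolic Hsp70 list, 1 was called with the block and 2 surrogate variables, against 8.

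Some small log2 fold changes turned sign. With no surrogate variable SSC1 was -0.034, JAC1 0.075, SSQ1 -0.013 and ZIM17 0.0055. SSQ1 was -0.011 with upper-quartile scaling and -0.0013 with a minimum of 100 counts. Leaving out 1 library put MGE1 between -0.031 and 0.016, SSQ1 between -0.027 and 0.022 and ZIM17 between -0.048 and 0.015. None of these passed the threshold.

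The replicate block, for numbers not taken to pair the cultures, gave 2374 calls over all transcripts and 44 with 2 surrogate variables added. It called 1 member in each fit. With the block, SSC1 was -0.035, JAC1 0.074, SSQ1 -0.012, ZIM17 0.0037 and MDJ1 0.16 (adjusted p = 0.204); with the block and 2 surrogate variables ECM10 was 0.021, ZIM17 0.021, MDJ1 0.073 (0.746) and UBR1 0.34 (0.115). For ratios the block was a sign-flip test on the 5 same-numbered differences. It gave the SSC1 to SSA2 ratio (-0.31) and the MGE1 to FES1 ratio (-0.76) an adjusted p of 0.104. Both ratios were lower in the mutant in every same-numbered pair, and so was SSC1 to HSP78. The HSP78 to HSP104 ratio was higher in the mutant in every such pair, by little in some. For all of these ratios the unadjusted p was the smallest this test can give. An adjusted p over 0.1 therefore does not show a weaker difference here.

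Leaving out 1 library gave log2 ratio differences of -0.374 to -0.259 for SSC1 to SSA2, -0.903 to -0.563 for MGE1 to FES1, -0.281 to -0.131 for SSC1 to MDJ1, -0.057 to 0.053 for SSC1 to MGE1, -0.117 to -0.053 for HSP60 to TCP1 and 0.030 to 0.082 for HSP78 to HSP104. The cause of these changes was not tested. The thinnest member was JAC1, with 906 estimated counts in its lowest library.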

Other observations

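Applied after the values were seen, the likeness measure gave MGE1 nearest to EMC10 (SD of the log2 ratio 0.024), below the SD of 0.059 of MGE1 itself. For MDJ1 the nearest gene, UBX6, had an SD of 0.098, against 0.152 for MDJ1 itself. For SSC1 the nearest, YPR204W, had 0.045, against 0.152. These are descriptions over the same 10 libraries.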
